A study of Sus scrofa with 40 samples.

Results

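The 9 genes of arginine, nitric oxide and creatine metabolism followed in pig kidney were ARG1, ASS1, ASL, GATM, OAT, NOS1, NOS2, NOS3 and CKB. An array row was taken for a gene when its gene name equalled the symbol, or when its description gave the symbol in brackets. That rule found 29 of the 43603 rows of the Agilent porcine array for 6 of the 9 genes, namely 4 oligonucleotides for ARG1, 1 for ASS1, 7 for GATM, 10 for OAT, 5 for NOS2 and 2 for NOS3. ASL, NOS1 and CKB had no row by this rule and were not analysed here. No oligonucleotide of the 6 genes was saturated, and none was removed for low signal.

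The samples were biopsies of kidneys from 3 months old Large White pigs, taken from the cortex (C) or from the corticomedullary junction (CMJ), the border of cortex and medulla. Control kidneys (Ctl) were sampled at removal without ischemia. In the warm ischemia group (WI) the vessels were clamped and the kidney was kept clamped for 60 min at 37 °C. In the other groups the same 60 min of warm ischemia was followed by a flush with University of Wisconsin preservation solution and storage at 4 °C, with sampling after 6 h (WI+CS6h) and after 24 h (WI+CS24h). Each of the 8 groups held 5 samples, for 40 single-colour arrays, and the WI+CS6h and WI+CS24h samples came from the same 5 kidneys per the labels, which do not state that a number marks a kidney. Every cold-stored kidney had also been warm ischemic, no kidney was reperfused with blood, and no group had cold storage alone. The labels do not state whether a cortex and a junction sample of 1 number came from 1 kidney.

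Arginine is made in the kidney, mainly in the proximal tubule, from circulating citrulline by argininosuccinate synthase (ASS1) and argininosuccinate lyase. It is split into ornithine and urea by arginase, of which ARG1 is the cytosolic enzyme of liver and blood cells. Ornithine aminotransferase (OAT) uses the ornithine, glycine amidinotransferase (GATM) uses arginine in the first step of creatine synthesis, and the nitric oxide synthases use it to make nitric oxide, in endothelium by NOS3 and in activated macrophages and other cells by NOS2.

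The brightest oligonucleotides of GATM, OAT, ASS1 and ARG1 are shown because the values below rest mainly on them. Each was 60 bases long and was written 5′ to 3′ in the array files, with its first base numbered along the transcript it was tied to, and its first 30 bases are given. The names ARG1 1321, GATM 2226 and the like below are these positions. The genome build of the array annotation was not given in the sources used here, so no genome position is stated.
GATM of ENSSSCT00000005158, first 30 bases: aatggaggtaaaacctacatgcgatgtgaa
OAT of ENSSSCT00000011746, first 30 bases: ttttgagtaaactccaaattggccaactcc
ASS1 of ENSSSCT00000006270, first 30 bases: gagtttaagaaaggggtacccgtgaaggtg
ARG1 of NM_214048, first 30 bases: actgtatcaattccctcttggtgtgaaaat

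Values are log2 signals after quantile normalization over the 40 arrays. Between 57.01% and 69.91% of the spots of an array were well above background, and the lowest signal so called lay between 1.64 and 3.45 on the log2 scale. Proximal tubule markers were high in all groups, with a mean log2 signal of the 9-gene list between 12.9 and 13.71 in every sample. In the 4 cold-stored groups the samples numbered 1 and 2 stood apart from samples 3 to 5. Over the 43210 rows with a value on every array, samples 1 and 2 were both the highest pair or both the lowest pair in all 4 cold-stored groups for 4.07% of the rows, against 0.00463% in the 4 Ctl and WI groups. Per the labels the 6 h and 24 h samples share kidneys, so the 4 cold-stored groups are no independent repeats. Other pairs of numbers were not counted. Samples 1 and 2 were spread over different slides and scan days, and 61.99% to 68.47% of their spots were well above background, against 57.01% to 69.91% in samples 3 to 5. Among the 6 genes, samples 1 and 2 were such a pair in all 4 cold-stored groups for 10 of 10 oligonucleotides of OAT (lowest), 7 of 7 of GATM (highest), the 1 of ASS1 (highest), 1 of 4 of ARG1 (lowest), and none of NOS2 or NOS3. Results on these genes are therefore given with all samples and again without samples 1 and 2 of the cold-stored groups, a choice made after seeing the data. Where these samples were the lowest or the highest of their groups, leaving them out moves the difference and narrows the spread by construction. Calls and p-values on that reduced set are therefore a description and no test. In whole biopsies, fewer cells of a type and less RNA per cell cannot be told apart.

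No oligonucleotide of the 6 genes passed the test after cold storage. In the limma test across all rows, called at an adjusted p under 0.05 with a log2 difference of at least 0.5, 0 of the 29 were called against Ctl in the cortex after 6 h, beside 4.45% of all 43581 rows, and 0 after 24 h, beside 2.9%. In the junction 0 were called after 6 h, beside 3.33% of all rows, and 0 after 24 h, beside 3.7%. An unadjusted limma p under 0.05 was reached by 9 and 8 of the 29 in cortex, beside 22.5% and 17.6% of all rows, and by 8 and 7 in the junction, beside 17% and 18.4%, of which 7 and 6 in cortex and 7 and 7 in the junction were GATM, all higher. The median difference of the 29 oligonucleotides from Ctl was 0.05 and 0.27 in cortex and 0.19 at either time in the junction, beside 0.057, 0.014, -0.002 and 0.008 over all rows. It includes oligonucleotides of ARG1 and NOS2 that were not well above background on most arrays.

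Against WI, which had the same warm ischemia, 0 of 29 were called in each of 4 comparisons. In these, the cold cannot be told apart from the flush, the preservation solution or the time in storage. Of all rows, 2.44% were called against WI in cortex at 6 h and 1.68% at 24 h, and 3.28% and 3.34% in the junction. An unadjusted limma p under 0.05 was reached by 8 and 3 of the 29 in cortex, beside 16.1% and 12.7% of all rows, and by 7 and 6 in the junction, beside 18% and 17.6%, of which 6, 1, 6 and 6 were GATM. The comparisons with Ctl and with WI share the cold-stored samples and are no independent repeats. The p-values measure the spread between these samples.

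**Figure D1:**
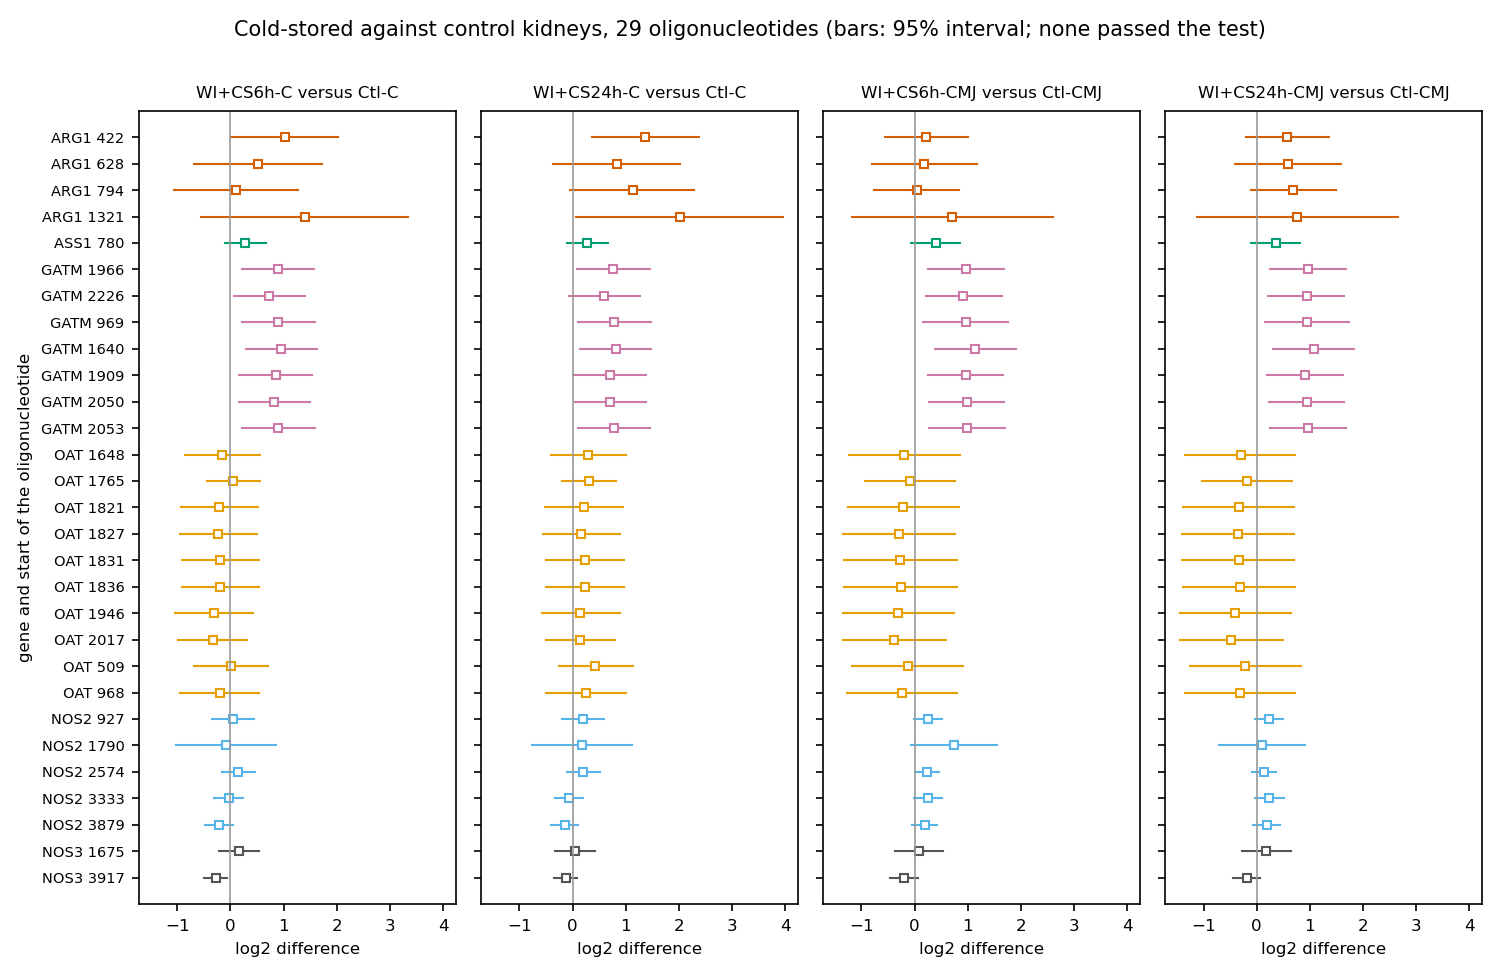
Log2 difference (x axis) of cold-stored against Ctl groups for the 29 oligonucleotides (y axis, gene and position on the transcript), in cortex and junction after 6 h and 24 h. Squares are estimates and bars 95% intervals of the limma fit, and none passed the test. The 7 GATM oligonucleotides lie between 0.6 and 1.14, the bars of OAT, at -0.48 to 0.43, cross 0, and ARG1 1321, not well above background on any Ctl-C array, has the widest bars. ARG1 422, 628 and 794 and NOS2 1790 were not well above background on most arrays, and their squares are no measured differences.

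GATM, which makes the creatine precursor guanidinoacetate and is abundant in proximal tubule, had higher means after cold storage without passing the test. The brightest oligonucleotide, at base 2226 of ENSSSCT00000005158, was 13.03, 12.94, 12.7, 13.23 and 12.94 for Ctl cortex, 13.27, 12.85, 12.59, 13.17 and 13.3 for WI, 14.54, 14.21, 13.56, 13.47 and 12.69 at 6 h and 14.26, 14.07, 13.52, 13.52 and 12.49 at 24 h. The junction samples had 12.46, 12.62, 12.48, 12.56 and 12.29 in Ctl, 12.67, 12.48, 12.66, 12.7 and 12.45 in WI, 14.15, 14.21, 13.32, 13.08 and 12.27 at 6 h and 14.05, 14.25, 13.16, 13.29 and 12.35 at 24 h. Samples 1 and 2 were the highest of each cold-stored group, samples 3 and 4 lay between them and the controls, and sample 5 was within or below the range of the controls in all 4 groups.

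Over the 7 GATM oligonucleotides the difference from Ctl was 0.73 to 0.95 at 6 h and 0.6 to 0.81 at 24 h in cortex, and 0.92 to 1.14 and 0.91 to 1.07 in the junction. The lowest adjusted p in these comparisons was 0.0859, 0.183, 0.0863 and 0.1. After warm ischemia alone the difference was 0.04 to 0.2 in cortex and 0.05 to 0.17 in the junction. Without samples 1 and 2 the differences became 0.28 to 0.49 and 0.21 to 0.42 in cortex and 0.33 to 0.56 and 0.35 to 0.54 in the junction. With sample 5 of the cold-stored group alone left out, 3 oligonucleotides were called in cortex at 6 h, beside 3.08% of all rows, and 6 in the junction at 6 h and at 24 h, beside 3.09% and 3.47%, with differences of 1.14 to 1.43. Sample 5 was the lowest GATM sample of each cold-stored group, so leaving it out raises the difference and narrows the spread by construction. Against WI the differences were 0.66 to 0.84 and 0.54 to 0.7 in cortex and 0.79 to 1.04 and 0.77 to 0.97 in the junction (adjusted p from 0.12 to 0.549). Of the 7 oligonucleotides, 2 pairs overlapped by 49 and 53 bases and are not separate measurements. The 9 proximal tubule markers had a mean log2 signal of 13.43 to 13.71 in samples 1 and 2 and of 12.9 to 13.51 in samples 3 to 5 of the cold-stored groups, which overlap. Of these 9, SLC34A1 and MIOX were highest in samples 1 and 2 in all 4 groups and the other 7 were not, while SCNN1G of the collecting duct list and CD2 of the leukocyte list were also highest there. Their part in the GATM signal was not tested.

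The kidney as a random block, which links the 6 h and 24 h samples of a kidney, called, if a number marks a kidney, 3 GATM oligonucleotides against Ctl in the junction at 6 h (lowest adjusted p = 0.0344, beside 3.72% of all rows) and 2 at 24 h (lowest adjusted p = 0.0429, beside 4.05%), and 0 in cortex. The arrays were scanned on 2 days and each group was on both. Within scan day 1 the GATM differences from Ctl were 1.14 to 1.36 and 1.08 to 1.36 in cortex and 0.86 to 1.04 and 0.71 to 0.87 in the junction at 6 h and 24 h. Within scan day 2 they were 0.45 to 0.71 and -0.05 to 0.16 in cortex and 0.97 to 1.21 and 1.12 to 1.4 in the junction, none called on either day with these fewer arrays. In cortex at 24 h, day 1 held samples 1, 2 and 4 and day 2 held samples 3 and 5, so that scan day and the split of samples 1 and 2 from sample 5 cannot be told apart there.

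**Figure D2:**
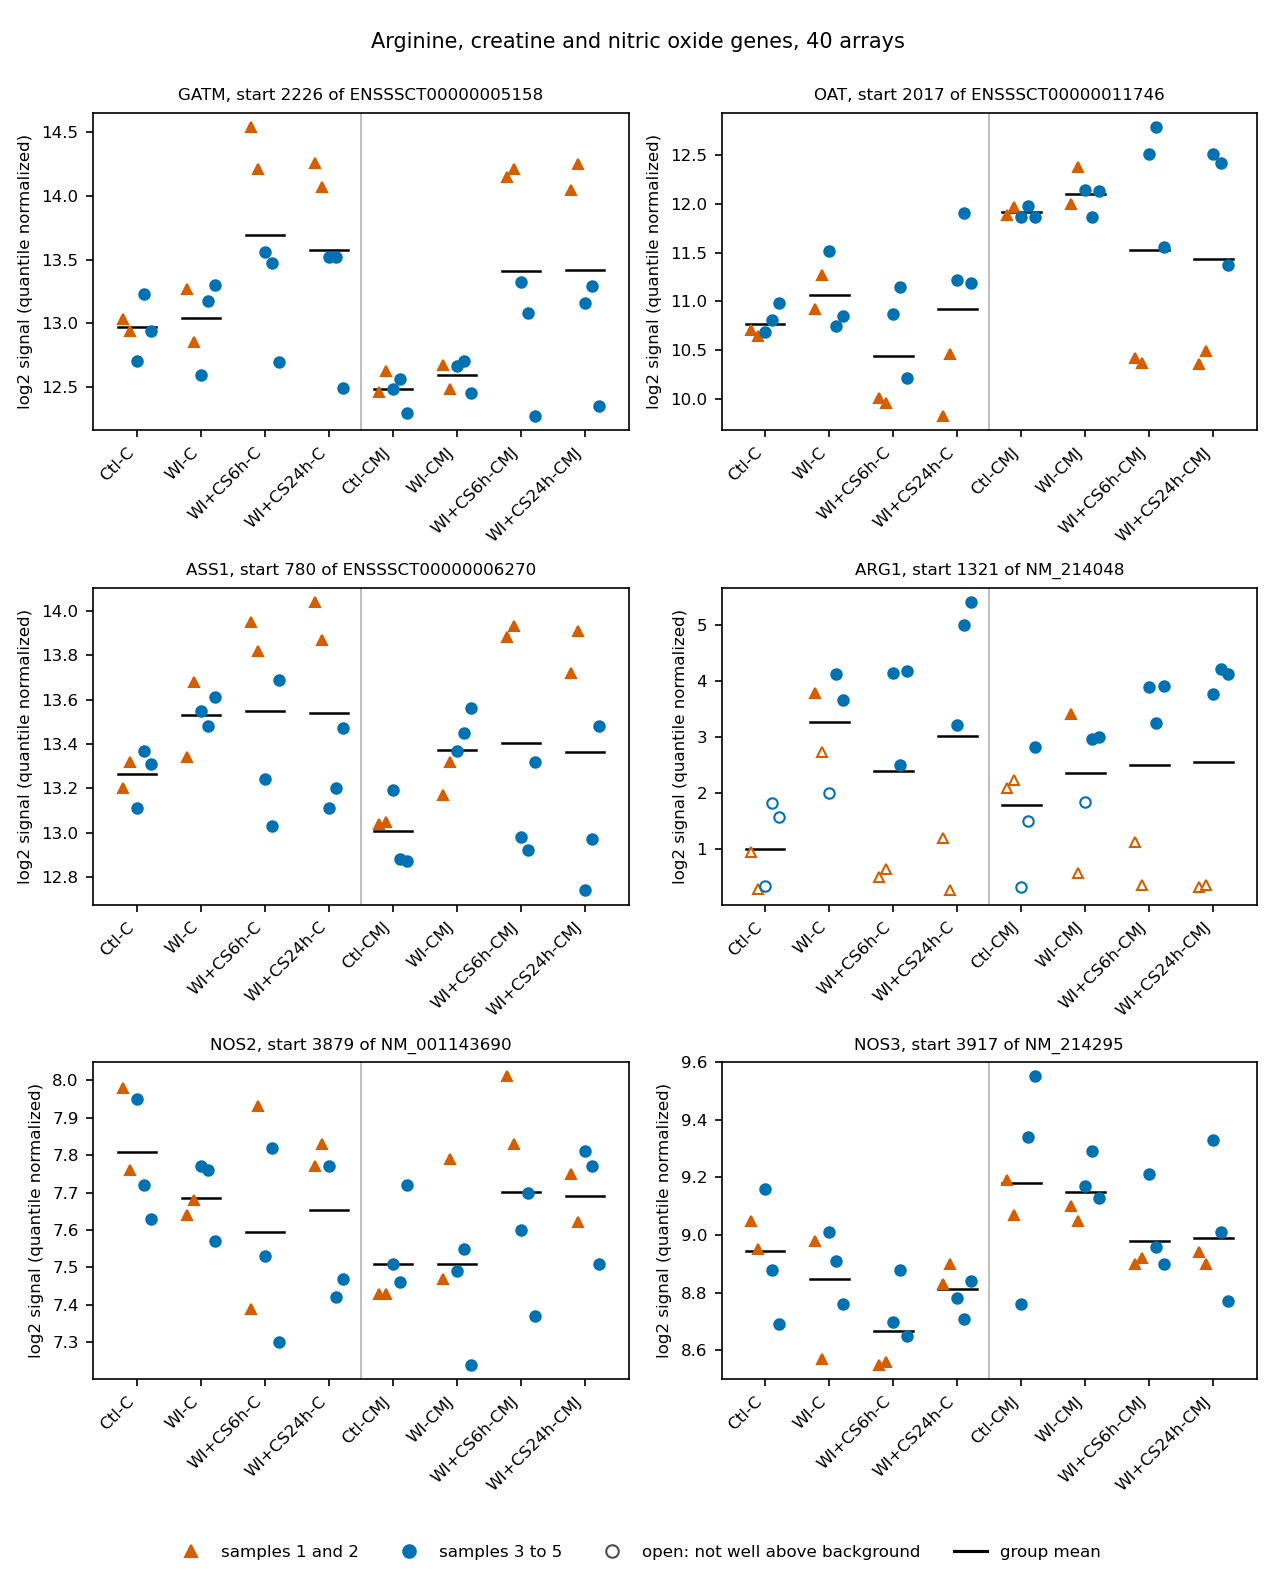
Log2 signal (y axis, quantile normalized) of the brightest oligonucleotide of GATM, OAT, ASS1, ARG1, NOS2 and NOS3 in each sample of the 8 groups (x axis). Triangles are samples 1 and 2, circles samples 3 to 5, open symbols are not well above background and bars are group means. In the cold-stored groups samples 1 and 2 are highest for GATM and ASS1 and lowest for ARG1 and, within each group, OAT, while NOS2 (7.24 to 8.01) and NOS3 (8.55 to 9.55) show no such split.

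OAT, the mitochondrial enzyme that turns ornithine into glutamate semialdehyde, had higher values in the junction than in the cortex of Ctl and WI kidneys, without passing the 40-array test. The brightest of its oligonucleotides, on transcript ENSSSCT00000011746, was 10.71, 10.65, 10.69, 10.81 and 10.98 in Ctl-C and 11.88, 11.97, 11.86, 11.98 and 11.86 in Ctl-CMJ. In WI it was 10.92, 11.27, 11.52, 10.75 and 10.85 in cortex and 12, 12.37, 12.14, 11.86 and 12.13 in the junction. Every junction sample lay above every cortex sample in both groups. In the 40-array fit no OAT oligonucleotide was called between the tissues, with differences of 0.87 to 1.14 in Ctl (adjusted p from 0.354 to 0.546) and of 0.92 to 1.06 in WI (adjusted p from 0.282 to 0.494), while all 10 had no overlap of samples in either group, as had 2.77% of all rows with a value on every array in Ctl and 3.65% in WI. When only the 10 arrays compared were fitted, 10 were called in Ctl (adjusted p from 0.00143 to 0.01, beside 0.326% of all rows) and 8 in WI (adjusted p from 0.0169 to 0.0491, beside 1.02%). Of the 10 oligonucleotides, 6 pairs shared 23 to 51 bases.

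After cold storage the OAT values spread. In cortex the same oligonucleotide was 10.01, 9.96, 10.87, 11.15 and 10.22 at 6 h and 9.83, 10.46, 11.22, 11.9 and 11.19 at 24 h, and in the junction 10.42, 10.37, 12.51, 12.78 and 11.56 at 6 h and 10.36, 10.49, 12.51, 12.42 and 11.37 at 24 h. Samples 1 and 2 lay below all Ctl and WI samples of their tissue, and in the junction samples 3 and 4 lay above all of them. Sample 5 also lay below all Ctl and WI samples of its tissue in cortex at 6 h and in the junction at 6 h and 24 h. Against Ctl the 10 differences were -0.33 to 0.05 and 0.15 to 0.43 in cortex and -0.38 to -0.09 and -0.48 to -0.18 in the junction, none called. With samples 1 and 2 left out they were -0.02 to 0.46 and 0.66 to 0.98 in cortex, where OAT 509 was called at 24 h (0.98, adjusted p = 0.0231, beside 1.69% of all rows), and 0.37 to 0.69 and 0.19 to 0.58 in the junction. The same reduced set gave 7 called OAT oligonucleotides in the junction against the cortex at 6 h (differences of 1.36 to 1.53, limma adjusted p from 0.0232 to 0.0482), beside 0.115% of all rows in that set.

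**Figure D3:**
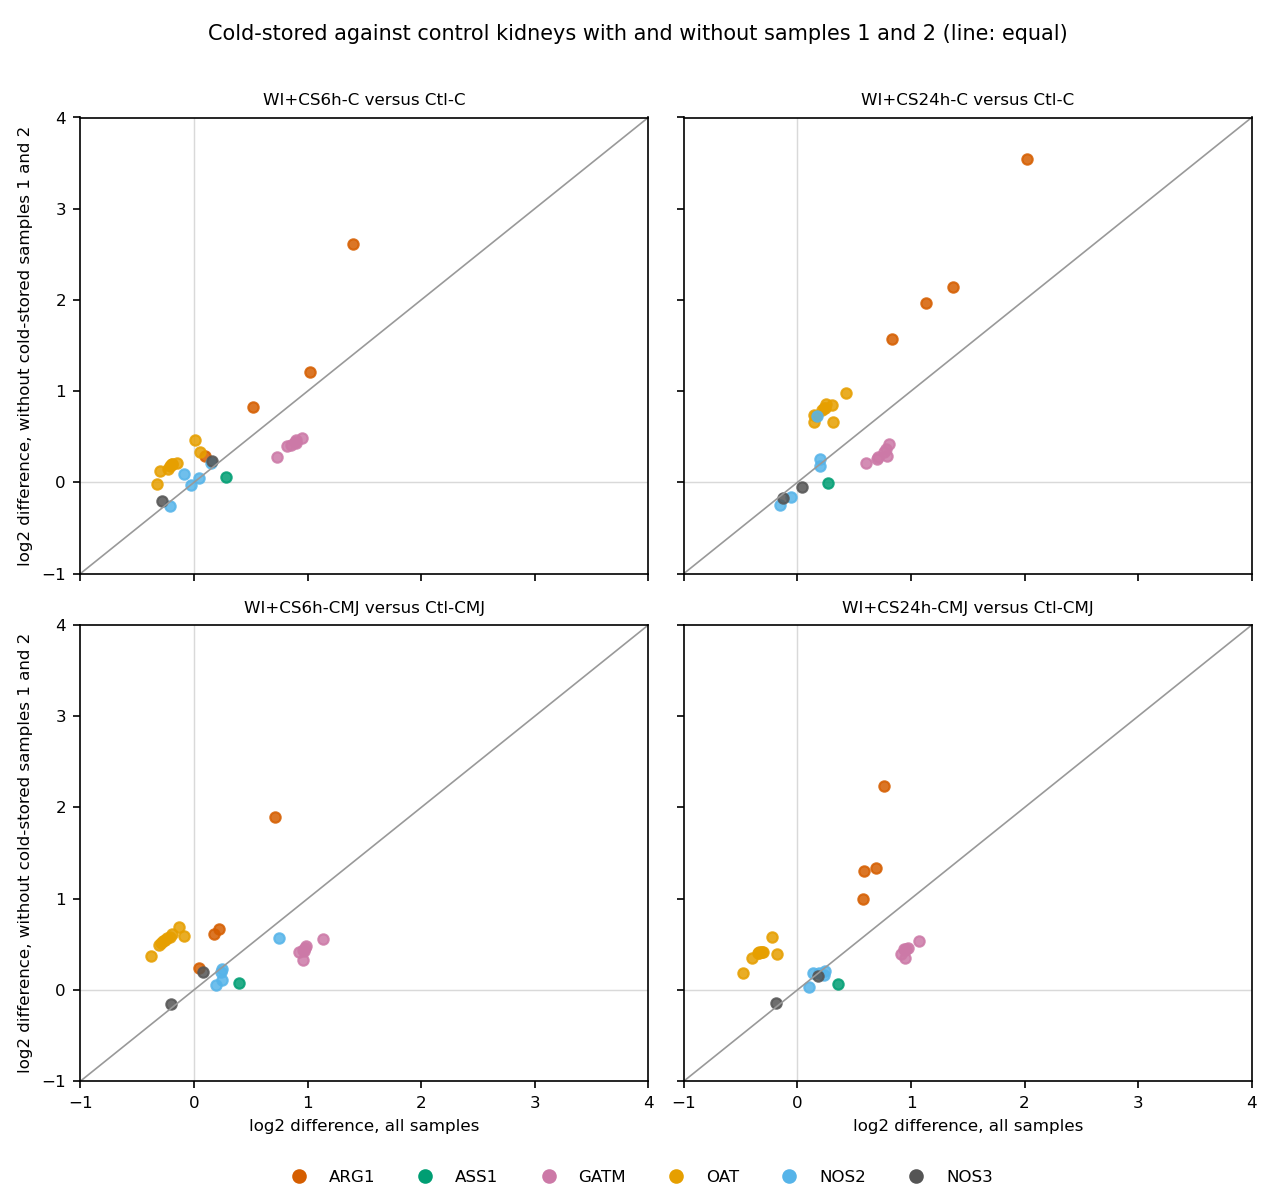
Log2 difference of cold-stored against Ctl groups with all samples (x axis) and without cold-stored samples 1 and 2 (y axis), 1 point for each of the 29 oligonucleotides, coloured by gene, with the line of equal values. GATM lies below the line (0.6 to 1.14 with all samples, 0.21 to 0.56 without), and OAT and ARG1 1321 lie above it. ARG1 422, 628 and 794 and NOS2 1790 were well above background on 2 of 40 arrays each, and their points are no measured differences.

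ARG1, the arginase of liver, erythrocytes and myeloid cells, lay at or near background on most arrays. The oligonucleotide at base 1321 of NM_214048 was well above background on 19 of 40 arrays and the other 3 on 2 each. In cortex the former was 0.96, 0.29, 0.35, 1.82 and 1.57 in Ctl, 3.78, 2.74, 2.01, 4.13 and 3.66 in WI, 0.51, 0.65, 4.15, 2.5 and 4.17 after 6 h and 1.2, 0.27, 3.21, 4.99 and 5.41 after 24 h. Of these, 0 of 5 Ctl-C and 3 of 5 WI-C samples (1, 4 and 5) were well above background, so values of the others have no order. The mean of all 5 WI-C samples was 2.14-fold the lowest signals well above background in Ctl-C (limma adjusted p = 0.835). It includes samples not well above background, so this fold is no lower bound. In the junction it was 2.09, 2.24, 0.32, 1.51 and 2.82 in Ctl, 3.42, 0.57, 1.84, 2.96 and 3.01 in WI, 1.13, 0.36, 3.89, 3.26 and 3.91 after 6 h and 0.32, 0.37, 3.76, 4.21 and 4.12 after 24 h. In all 4 cold-stored groups samples 1 and 2 were not well above background and samples 3 to 5 were.

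No ARG1 oligonucleotide was called with all samples. Without samples 1 and 2 of the cold-stored groups, which were its lowest, ARG1 1321 was called against Ctl-C, where no array was well above background, at least 2.71-fold higher after 6 h (limma adjusted p = 0.0332, beside 3.25% of all rows called) and at least 5.16-fold higher after 24 h (limma adjusted p = 0.00878, beside 1.69%). ARG1 422, well above background in 2 of these 3 samples after 24 h, was also called there (limma adjusted p = 0.0136). Its mean over all 3 was 1.46-fold the lowest signals well above background in Ctl-C, which is no lower bound. The erythrocyte marker HBB, the beta chain of hemoglobin, moved with these samples. Its log2 signal was 0.07 to 1.52 in samples 1 and 2 and 1.72 to 5.82 in samples 3 to 5 of the cold-stored groups, 0.29 to 2.85 in Ctl-C and 3.56 to 4.61 in WI-C. HBB was well above background on 24 of 40 arrays, and its part in the ARG1 signal was not tested. Of the 6 leukocyte markers, 5 were well above background on all arrays, and their mean log2 signal was 6.24 to 6.55 in samples 1 and 2 and 6.13 to 6.64 in samples 3 to 5.

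ASS1, the argininosuccinate synthase, had 1 oligonucleotide, at base 780 of ENSSSCT00000006270. In cortex it was 13.2, 13.32, 13.11, 13.37 and 13.31 in Ctl, 13.34, 13.68, 13.55, 13.48 and 13.61 in WI, 13.95, 13.82, 13.24, 13.03 and 13.69 at 6 h and 14.04, 13.87, 13.11, 13.2 and 13.47 at 24 h. The junction samples had 13.04, 13.05, 13.19, 12.88 and 12.87 in Ctl, 13.17, 13.32, 13.37, 13.45 and 13.56 in WI, 13.88, 13.93, 12.98, 12.92 and 13.32 at 6 h and 13.72, 13.91, 12.74, 12.97 and 13.48 at 24 h. The differences from Ctl were 0.27 to 0.4 in the 6 comparisons and none was called (adjusted p from 0.353 to 1). With samples 1 and 2 left out, the cold-stored differences lay between -0.01 and 0.07.

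NOS3, the endothelial synthase, and NOS2, the inducible synthase, were not called in any comparison. NOS3 3917 of NM_214295 had group means of 8.67 to 8.95 in cortex and 8.98 to 9.18 in the junction. After warm ischemia alone it differed from Ctl by -0.1 in cortex and -0.03 in the junction. At 6 h of cold storage in cortex its difference from Ctl was -0.28 (limma adjusted p = 0.109). NOS3 1675 was 2.97, 2.65, 3.38, 2.4 and 2.58 in Ctl-C and 3.02, 3.16, 3.72, 3.44 and 3.47 in WI-C, overlapping groups with a difference of 0.57 (adjusted p = 0.575), and differed by 0.59 in the junction (adjusted p = 0.209). It was well above background on 36 of 40 arrays. The 6 endothelial markers were well above background on all arrays, and their mean log2 signal was 8.78 to 9.08 (median 8.81) in Ctl-C and 8.87 to 9.1 (median 8.98) in WI-C. In the junction it was 8.46 to 9.45 (median 8.95) in Ctl and 9.17 to 9.35 (median 9.24) in WI, so that the ranges overlap in both tissues, and 0 of the 6 were called after warm ischemia in either. Their part in the NOS3 signal was not tested. NOS2 3879 of NM_001143690 ranged from 7.24 to 8.01 over the 40 arrays. Differences from Ctl after cold storage lay between -0.21 and 0.25 for the 4 NOS2 oligonucleotides that were well above background on all arrays. After warm ischemia alone these 4 differed by -0.18 to 0.38 in cortex (lowest limma adjusted p = 0.807). In the junction NOS2 3333 was 4.69, 4.63, 4.84, 4.57 and 5.01 in Ctl and 4.93, 5.41, 5.07, 5.26 and 5.17 in WI, and the lowest NOS2 limma adjusted p was 0.116. NOS2 1790 was well above background on 2 of 40 arrays and gives no difference.

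No oligonucleotide of the 6 genes was called in WI-C versus Ctl-C, where 0.0849% of all rows were called, nor in WI-CMJ versus Ctl-CMJ, where 0.787% were. Unadjusted limma p-values fell under 0.05 for 3 of 29 in either tissue, beside 5.31% of all rows in cortex and 13.1% in the junction. Between 24 h and 6 h of cold storage 0 of 29 were called and 0 had an unadjusted p under 0.05, in cortex (0% of all rows called, 2.82% under that p) and in the junction (0.00229% and 3.06%). Between junction and cortex 0 of 29 were called in Ctl (0.347% of all rows), WI (0.863%), WI+CS6h (0.0643%) and WI+CS24h (0%), with unadjusted p-values under 0.05 for 13, 11, 11 and 0, beside 6.63%, 7.9%, 9.06% and 3.87% of all rows. Oligonucleotides without overlap of the tissues numbered 17 in Ctl (10 OAT, 7 GATM) and 11 in WI (10 OAT, 1 NOS3), beside 2.77% and 3.65% of the 43210 rows with a value on every array, and 1 in WI+CS6h (NOS3, 0.625%) and 0 in WI+CS24h (0.398%). All 7 GATM differences in Ctl were negative in the junction, at -0.48 to -0.37. The test of whether the response differed between tissues called 0 of 29 for WI, WI+CS6h and WI+CS24h (0% of all rows in each), with 0, 1 and 0 under an unadjusted p of 0.05, beside 2.05%, 4.86% and 2.56% of all rows.

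Of 50 other genes listed for arginine and urea, nitric oxide, creatine, and ornithine and proline metabolism, 34 had a row, and 4 were called in at least 1 comparison with Ctl or WI. Each is given by its brightest oligonucleotide alone, of 3 for NAGS, 1 for SLC7A2, 11 for CKMT2 and 2 for AZIN2. NAGS, which makes the activator of urea cycle entry, was higher than Ctl in cortex by 1.41 at 6 h (adjusted p = 0.0201) and 1.26 at 24 h (adjusted p = 0.0466), and in the junction by 1.47 at 6 h (adjusted p = 0.03) and 1.47 at 24 h (adjusted p = 0.0282). On the set without cold-stored samples 1 and 2 these became 1.1, 0.75, 0.94 and 1, none called (adjusted p from 0.0633 to 0.274). SLC7A2, a carrier of arginine and other cationic amino acids, was lower in the junction, with log2 differences of -0.65 (adjusted p = 0.00278) and -0.5 (adjusted p = 0.0162) from Ctl and of -0.89 (adjusted p = 0.000272) and -0.74 (adjusted p = 0.00122) from WI at 6 h and 24 h. On the reduced set the SLC7A2 differences from Ctl were -0.57 (adjusted p = 0.038) and -0.51 (adjusted p = 0.0573). CKMT2, a mitochondrial creatine kinase, was higher than WI in the junction by 0.87 (adjusted p = 0.00185) and 0.73 (adjusted p = 0.00618), with the 5 WI-CMJ samples not called against Ctl-CMJ (-0.48, adjusted p = 0.118). Against Ctl-CMJ the cold-stored CKMT2 differences were 0.39 (adjusted p = 0.151) and 0.26 (adjusted p = 0.369), not called. AZIN2, an antizyme inhibitor that regulates polyamine synthesis, was lower than WI in the junction at 6 h (-0.77, adjusted p = 0.0386), and without samples 1 and 2 it differed by -0.75 with fewer arrays (adjusted p = 0.158). AZIN2 was not called against WI-CMJ at 24 h (-0.64, adjusted p = 0.0897) nor against Ctl-CMJ at 6 h (-0.42, adjusted p = 0.321) or 24 h (-0.28, adjusted p = 0.511), and WI-CMJ lay 0.36 above Ctl-CMJ (adjusted p = 0.51). In the junction 3 of the 34 genes were called at 6 h against WI, beside 3.28% of all rows, and 2 in each of the other 3 comparisons of cold storage, beside 3.33% to 3.7%. In cortex 1 was called at 6 h and at 24 h against Ctl (4.45% and 2.9% of all rows) and at 6 h against WI (2.44%), the last also NAGS (1.44, adjusted p = 0.0263), and 0 at 24 h against WI (1.68%).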

How the data were processed

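Per the labels, RNA of each biopsy was labelled in 1 colour and hybridized to Agilent porcine arrays, and the authors read the scanned images with Feature Extraction 11.5.1.1. The deposited intensity values are its processed signals, background-subtracted by that program. A deposited table of log2 values equalled the quantile-normalized log2 median signals (100% of 1285758 values of the 32153 identifiers with 1 spot equal to within 1e-08) and served as an alternative. Here log2 processed signals, outlier spots left out (10 to 85 per array), were quantile normalized over 40 arrays, spots of an oligonucleotide were averaged, and limma 3.58.1 in R 4.3.3 was fitted per tissue (20 arrays) or to 40 arrays for tissue comparisons, with Benjamini-Hochberg adjustment over all rows. A row was called at an adjusted p under 0.05 and a log2 difference of at least 0.5. At-least folds set the mean of the brighter group against the lowest signals well above background. Where the brighter group held samples not well above background, the fold is no lower bound. The precision is limited by 5 arrays a group, and the steps were tested on simulated data. Members, lists and named genes were chosen with earlier results of these data known: all oligonucleotides of the 9 genes, the other pathway genes called in any comparison with Ctl or WI, each by its brightest oligonucleotide; rows of like pattern were to be named for called members, and 0 were called. Some further items are not reported here. Sample numbers paired the 6 h and 24 h junction samples (correlation of deviations 0.369 to 0.657) but not the cortex samples (-0.261 to 0.392); per the labels both times come from 1 set of kidneys, but no label ties a number to a kidney. Cortex and junction samples of 1 number correlated at 0.171 to 0.501 at 6 h and 0.181 to 0.545 at 24 h, against -0.108 to 0.099 in Ctl and 0.043 to 0.204 in WI. Alternatives were other scalings, a normexp background with offset 50, a filter on dim rows, blocks of number, kidney, slide and scan day, array quality as covariate, the compared groups alone, and leaving out samples.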

Additional observations from a re-analysis of the deposited data

Results flagged for a closer look

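In groups of 5, a sample was marked where its gap to the nearest other sample was more than 0.71 of the group's range. Over 48 groups checked, 8 for the brightest oligonucleotide of each gene, 2 were marked, and chance marks about 1 in 20. For NOS2 3879 the gap share was 0.72 in Ctl-CMJ (sample 5 at 7.72, the next at 7.51), and for NOS3 3917 it was 0.796 in WI+CS6h-CMJ (sample 3 at 9.21, the next at 8.96). The split of cold-stored samples 1 and 2 from the others does not meet this rule, since it concerns a pair.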

How the results depend on the processing

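No oligonucleotide of the 6 genes was called with all samples, and 14 of 278 counts under alternatives that leave out no single sample were above 0, all of them of oligonucleotides that were higher. The cause was not tested unless fewer arrays were fitted. With quantile normalization within each group, in which the median of all rows was for example 0.181 instead of 0.032 in WI+CS6h-C versus WI-C, 6 GATM oligonucleotides were called against Ctl in cortex and 5 in the junction at 6 h, 6 in the junction at 24 h, and 5 against WI in cortex at 6 h. Calls over all rows rose too, from 1939 to 3642, 1452 to 1926, 1611 to 2239 and 1062 to 2745 in these comparisons. Against Ctl the replicate block called 1 GATM oligonucleotide in cortex (4.27% of all rows) and 4 in the junction at 6 h (3.68%) and 5 in the junction at 24 h (4.14%), and the replicate block of kidneys 3 and 2 in these junction comparisons; blocking changed no other count. Fitting the compared groups alone called 10 OAT oligonucleotides in Ctl and 8 in WI between the tissues. Without cold-stored samples 1 and 2, chosen after seeing the data, 1 was called in cortex at 6 h against Ctl (ARG1), 3 at 24 h (2 ARG1, 1 OAT) and 7 between the tissues at 6 h (OAT). Leaving out 1 sample at a time gave 0 to 3 in cortex at 6 h and 0 to 6 in the junction at either time against Ctl, and 0 to 4 in the junction at 6 h against WI, each high end without the cold-stored sample 5, when GATM was called, and 0 in the other comparisons. Sample 5 was the lowest GATM sample of each cold-stored group, so leaving it out raises the GATM differences by construction. The other scalings, the normexp background, the filter on dim rows, the slide or scan day as a term, either scan day alone, the array quality covariate, averaging by identifier and the deposited log2 table called 0 of 29 throughout. Of 16 alternatives, SLC7A2 and CKMT2 kept their junction calls against WI in 13, SLC7A2 its junction calls against Ctl in 12 at 6 h and 6 at 24 h, AZIN2 its call in 7, and NAGS its calls against Ctl in 5 to 10 and against WI in cortex at 6 h in 9. With most ARG1 arrays not well above background, changes of ARG1 can be given only against that level.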
